A study of Mus musculus with 24 samples.

Results

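Blood endothelial identity genes were described in healing skin wounds of diabetic mice, as a set of 35 genes chosen by symbol among the 54232 genes counted. All 35 were matched to an Ensembl identifier, and all 35 passed the filter on low counts, as members of the 18978 genes tested. The wounds were full-thickness punch wounds of 6 mm on the back of male C57BLKS/J mice with the Lepr db/db genotype, made at 16 weeks of age. These mice carry the db mutation of the leptin receptor gene throughout the body and become obese and diabetic. An alginate bandage was laid on each wound at once and changed after 3 days, and the wounds were frozen on day 10, when the mice were 17.5 weeks old. In CM0 (n = 4) the bandage was loaded with conditioned medium of primary macrophages of the M0 state. In CM1 (n = 4) the macrophages were of the M1 state, in CMA (n = 5) of the M2a state and in CMC (n = 5) of the M2c state. Ctrl wounds (n = 6) had a control alginate bandage. Every group, Ctrl included, was db/db and wounded, so no lean or unwounded skin was compared. No source used here gives the agents that polarised the macrophages, or says whether the control bandage held unconditioned medium.

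Endothelial cells line all blood vessels, and they are held together by cadherin, claudin and immunoglobulin-family adhesion proteins. Transcription factors of the ETS and SoxF families set their identity, Notch signalling sets arterial fate, and COUP-TFII (Nr2f2) sets venous fate. In a healing wound new capillaries sprout from existing vessels under tip cells, and venules take in leukocytes through selectins.

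RNA was sequenced from whole wound tissue, and the 24 libraries held 7267879 to 11985292 counts assigned to genes. Levels are given as CPM, each gene's counts relative to the TMM-scaled total of its library, or as CPM per kilobase of exon where genes are compared with each other. In bulk tissue, fewer endothelial cells and less RNA per endothelial cell cannot be told apart. The tissue label was checked against marker sums. The summed CPM of 6 fibroblast genes, which make up dermal matrix, was 64499 to 87002 in CM0, 64667 to 117216 in CM1, 65456 to 94981 in CMA, 74155 to 83251 in CMC and 61572 to 88914 in Ctrl. The library Ctrl 3 stood apart by its hair follicle keratins, whose sum of 8 genes was 4944 CPM there and between 0.672 and 719 CPM in the others.

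The endothelial genes spanned a wide range of abundance, led by a fenestral protein and a junction protein. Per kilobase of exon, Plvap, which forms the diaphragms of endothelial fenestrae and caveolae, averaged 31.1 ± 7.86 CPM over the 24 wounds. It was followed by Cdh5 (VE-cadherin) at 25 ± 5.84 CPM per kilobase. Eng, a TGF-beta co-receptor, averaged 16.9 ± 3.04 CPM per kilobase and Ephb4, the venous ephrin receptor, 16.6 ± 1.38. At the low end, Gja5, an arterial connexin, averaged 1.11 ± 0.269 CPM per kilobase, Tal1, a transcription factor of blood and endothelial development, 0.967 ± 0.273, and Sele (E-selectin) 0.814 ± 0.435. Only the step between Cdh5 and Eng, of 8.15 CPM per kilobase, was larger than the SD of both neighbours in this order. These SDs are over wounds in which many of the genes vary together, so they do not measure the spread of a difference between neighbours. Whether the other neighbours differed was not tested. Ephb4 varied least, by 1.35-fold between its lowest and its highest library. Esm1, a tip cell proteoglycan, varied most, by 17-fold and over 5 to 70 counts, ahead of Sele at 6.60-fold.

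**Figure D1:**
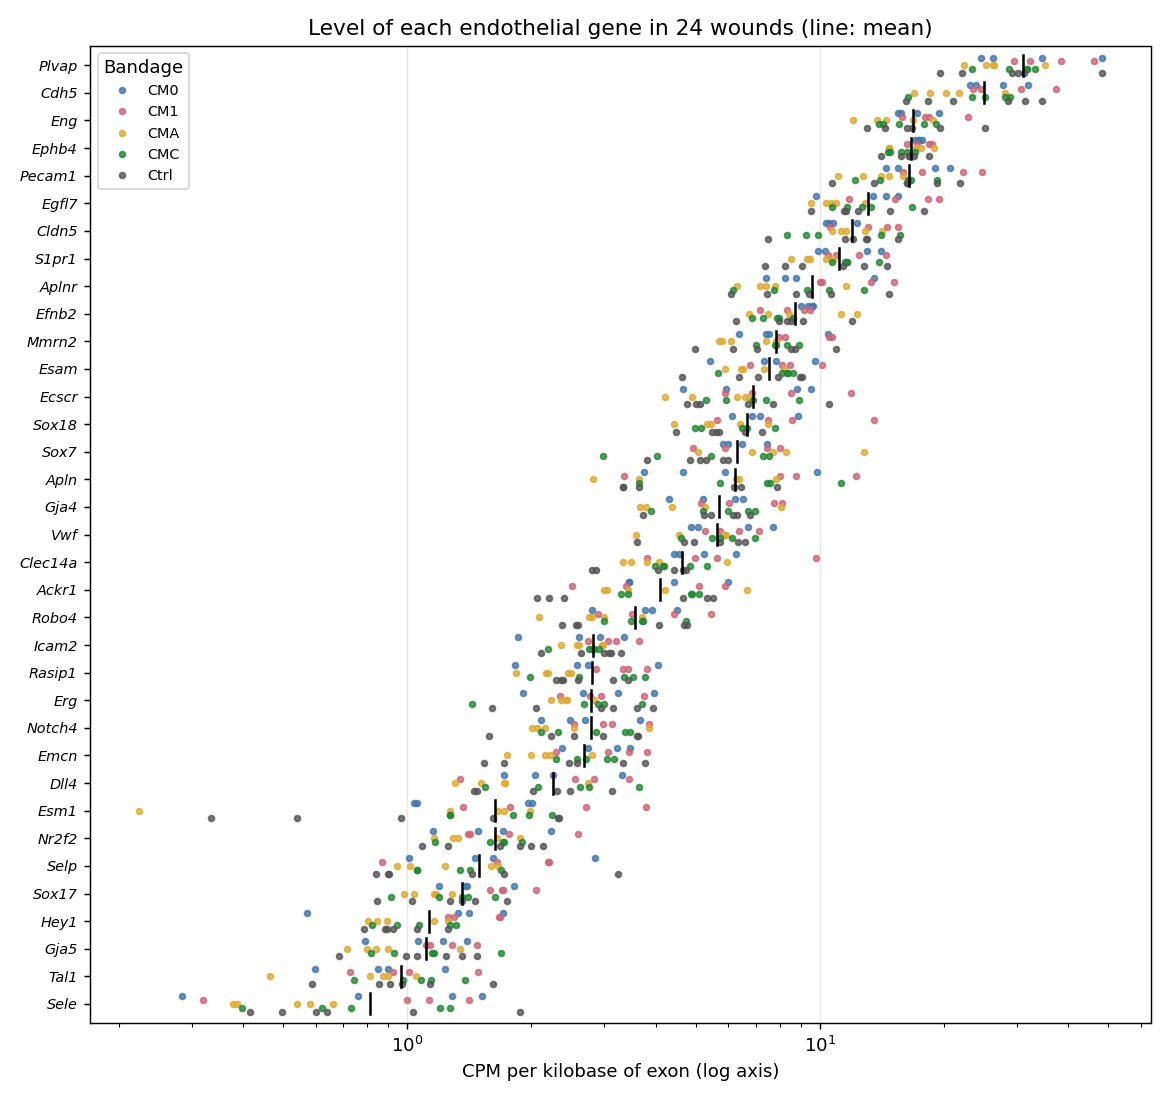
CPM per kilobase of exon (log axis) of the 35 endothelial genes, 1 point per wound, coloured by bandage, with a line at the mean over 24 wounds. Genes run in order of their mean, with Plvap at 31.1 on top and Sele at 0.814 at the bottom, and the bandages overlap within almost every gene.

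Most of these genes went up and down together from wound to wound, whatever the bandage. Cdh5 was taken as the anchor because Pecam1 is also found on platelets and leukocytes. Over the 24 libraries Pecam1 had a Pearson r of 0.93 with Cdh5 on the log2 CPM scale (Spearman rho 0.92). Robo4, a guidance receptor that steadies the endothelial barrier, had an r of 0.91 (rho 0.92), Aplnr, the apelin receptor, 0.90 (rho 0.90), Plvap 0.89 (rho 0.87), and Emcn, a sialomucin of capillaries and veins, 0.87 (rho 0.88). Each of these had a permutation p of 1e-05, the smallest that 100000 resamples can give, and an adjusted p of 2.62e-05 for r over the 34 correlations.

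The median r of the 34 genes with Cdh5 was 0.71, beside -0.01 over all 18977 other tested genes. An r above 0.8 was found for 13 of the 34 (38.2%), against 0.242% of tested genes, and an r above 0.5 for 24, against 4.27% of tested genes. The adjusted p was under 0.05 for 29 of the 34 by r and for 28 by rho. With the group means subtracted the median r was 0.66, and it was 0.64 when recomputed without the libraries farthest from the median of Cdh5, CM1 4 and Ctrl 3. Without those libraries 20 of the 34 had an r above 0.5, and the r was 0.91 for Pecam1, 0.89 for Robo4, 0.87 for Aplnr, 0.85 for Plvap and 0.84 for Emcn.

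Some arterial and venous genes were among those near Cdh5. Dll4, the Notch ligand of arterial and tip cells, had an r of 0.85 with Cdh5, Notch4, a Notch receptor of endothelium, 0.85, and the venous factor Nr2f2 0.85. The ETS factor Erg had an r of 0.86, and its nearest gene in the set was Esam, a tight junction adhesion molecule, with an r of 0.89. The 10 tested genes outside the set with the highest r with Cdh5 were Adgrl4 (0.92), Ptprb (0.90), Prex2 (0.90), Pcdh12 (0.88), Adgrf5 (0.87), Flt1 (0.86), Dock1 (0.86), Kdr (0.85), Dysf (0.85) and Arap3 (0.84). Of these, Adgrl4, Ptprb, Adgrf5, Flt1 and Kdr were on a list of 22 other endothelial genes, which holds the VEGF receptors Flt1 and Kdr.

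A minority stood outside this shared variation. Ackr1, the chemokine-binding receptor of venules, had an r of 0.06 with Cdh5 (rho 0.11, adjusted p of r 0.793 over the 34 permutation tests), but 25.7% of its exon bases are shared with Cadm3 on the same strand, so its counts are uncertain. Sox7, a SoxF factor, had an r of 0.17 (rho 0.22), Efnb2, the arterial ephrin, 0.22 (rho 0.26), Sele 0.26 (rho 0.25) and Ephb4 0.40 (rho 0.41), and their adjusted permutation p lay between 0.0634 and 0.43 for r. Without CM1 4 and Ctrl 3 the r was 0.44 for Efnb2, 0.17 for Sox7, 0.23 for Sele, 0.37 for Ephb4 and -0.22 for Ackr1, and with the group means subtracted it was 0.28 for Efnb2, 0.33 for Sox7, 0.13 for Sele, 0.33 for Ephb4 and 0.04 for Ackr1. The nearest gene to Efnb2 was its own receptor Ephb4, with an r of 0.61, and the nearest to Sele was the other selectin Selp, with an r of 0.66. Ackr1 was also nearest to Selp, with an r of 0.59, and Esm1 to Apln, with an r of 0.74. These pairs were picked as the highest of many r values and carry no test.

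**Figure D2:**
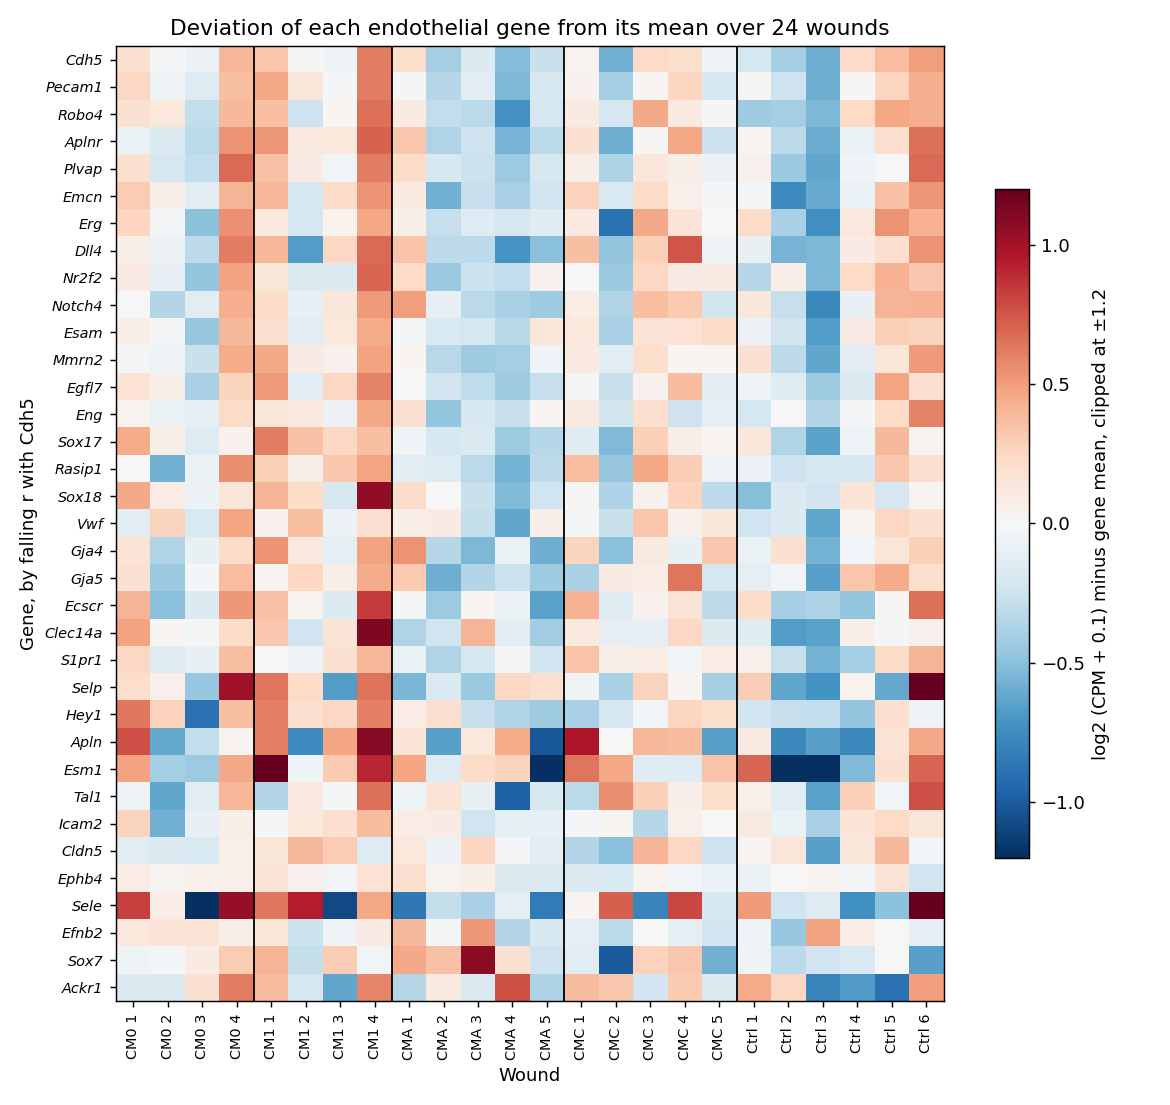
Each row is 1 of the 35 endothelial genes, by falling r with Cdh5, and each column 1 wound, with bandages CM0, CM1, CMA, CMC and Ctrl side by side; colour is the difference of log2 (CPM + 0.1) from the gene's mean. The upper rows share columns of 1 colour, such as CM1 4 (high) and Ctrl 3 (low), which the bottom rows from Sele to Ackr1 share less.

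The proximal promoters of 4 genes near the top of that order, and of the apelin ligand, are printed here so that the shared variation can be set beside sequence. They are the RefSeq windows of GRCm38.p6, 300 bases each, 250 before and 50 after the transcription start, printed 5′ to 3′ in the sense of the gene. Capitals mark the ETS motif AGGAAG, or CGGAAG, on either strand, so that CTTCCT is a match on the other strand. The windows are chr9:37401722-37402021 (plus strand) for Robo4, chr3:137340828-137341127 (plus) for Emcn, chr16:95586544-95586843 (minus) for 1 of the starts of Erg, chr2:119325534-119325833 (plus) for Dll4 and chrX:48034804-48035103 (minus) for Apln.
Robo4: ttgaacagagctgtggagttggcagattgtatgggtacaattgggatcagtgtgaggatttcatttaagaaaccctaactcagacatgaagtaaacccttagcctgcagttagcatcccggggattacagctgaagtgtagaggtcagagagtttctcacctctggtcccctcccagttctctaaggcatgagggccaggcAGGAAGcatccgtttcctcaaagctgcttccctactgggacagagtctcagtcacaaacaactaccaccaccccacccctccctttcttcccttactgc
Emcn: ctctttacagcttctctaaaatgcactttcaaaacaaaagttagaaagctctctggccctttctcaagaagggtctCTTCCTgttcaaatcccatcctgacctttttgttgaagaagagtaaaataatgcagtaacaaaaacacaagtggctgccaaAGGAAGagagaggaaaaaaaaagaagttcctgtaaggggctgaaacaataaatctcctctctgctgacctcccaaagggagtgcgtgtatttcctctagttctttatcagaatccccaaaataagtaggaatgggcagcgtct
Erg: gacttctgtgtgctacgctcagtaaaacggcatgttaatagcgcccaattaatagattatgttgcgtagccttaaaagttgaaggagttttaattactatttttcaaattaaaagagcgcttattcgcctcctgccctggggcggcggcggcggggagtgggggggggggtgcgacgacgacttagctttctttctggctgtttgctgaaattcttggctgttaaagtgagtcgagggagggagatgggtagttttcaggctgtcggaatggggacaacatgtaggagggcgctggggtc
Dll4: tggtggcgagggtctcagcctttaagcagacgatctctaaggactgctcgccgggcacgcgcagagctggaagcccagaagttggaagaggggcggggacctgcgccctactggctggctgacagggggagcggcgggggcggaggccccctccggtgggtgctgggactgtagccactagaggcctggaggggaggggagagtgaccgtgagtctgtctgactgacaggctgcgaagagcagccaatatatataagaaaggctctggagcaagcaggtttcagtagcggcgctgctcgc
Apln: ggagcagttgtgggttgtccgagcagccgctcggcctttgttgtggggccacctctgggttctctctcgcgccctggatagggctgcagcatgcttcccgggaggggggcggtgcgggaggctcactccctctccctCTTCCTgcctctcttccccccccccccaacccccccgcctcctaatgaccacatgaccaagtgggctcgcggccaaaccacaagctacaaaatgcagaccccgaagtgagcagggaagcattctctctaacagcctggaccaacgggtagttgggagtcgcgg
The Robo4 window holds 1 match, at 49 bases before the start, Emcn 2 and Apln 1, and those of Erg and Dll4 hold 0, though another RefSeq window of Erg holds the motif. Of the 35 genes, 21 have 26 windows in the RefSeq table. AGGAAG on either strand was in 14 of these (53.8%), beside 35.4% of all 32851 windows, and CGGAAG in 0 of them, beside 16.9%, so that either form was in 53.8% of these windows, beside 46.5% of all windows. For the SOX motif ACAANG the shares were 30.8% and 41.2%, for the GATA motif AGATAA 11.5% and 11.2%, for the FOX motif GTAAACA 0.0% and 3.65%, for the RBPJ motif TGGGAA of Notch signalling 19.2% and 25.6%, and for the NF-kB motif (GGG, any 5 bases, CC) 57.7% and 50.8%. A match is a description of letters in these windows, and the absence of one says nothing of the factor.

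Single wounds differed widely in the level of the set. The mean deviation of a library over the 35 genes, in log2 units from each gene's mean, was highest in CM1 4 at 0.53, which was the highest library for 14 of the 35 genes, and lowest in Ctrl 3 at -0.50, the lowest for 13. CM0 4 followed at 0.38 and Ctrl 6 at 0.36, and at the low end CMA 5 at -0.32 and Ctrl 2 at -0.31. By bandage the deviation averaged 0.06 ± 0.28 in CM0, 0.23 ± 0.26 in CM1, -0.17 ± 0.16 in CMA, 0.02 ± 0.17 in CMC and -0.06 ± 0.31 in Ctrl (SD over libraries). The Ctrl wounds alone thus covered nearly the whole range. In CM1 4 the fibroblast sum was also the highest of all libraries, at 117216 CPM, and in Ctrl 3 it was 61572 CPM, the lowest, and the part of these tissue differences in the endothelial levels was not tested.

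Adhesion and junction genes held both abundant and scarce members of the set. Pecam1 had 119, 96.3, 90.1 and 129 CPM in CM0, 138, 109.9, 99.1 and 154 in CM1, 99, 79.2, 91.7, 68.9 and 87.7 in CMA and 104, 75.6, 102, 119.5 and 87.3 in CMC, against 66.6 to 136 CPM with a median of 101 in Ctrl. All CM1 wounds were above all CMA wounds, and the Ctrl range spanned the other groups but for CM1 1 and CM1 4. Cdh5 had 117, 101, 97.4 and 135 CPM in CM0, 129, 103, 99 and 157 in CM1, 118, 77.6, 91.2, 71.1 and 84.9 in CMA and 105, 68.7, 121, 118 and 98.5 in CMC, against 68 to 145 CPM with a median of 104 in Ctrl. The highest value was that of CM1 4 and the lowest that of Ctrl 3, and every bandage overlapped every other. Cldn5, the claudin of endothelial tight junctions, had 15.2, 14.9, 14.7 and 17.5 CPM in CM0, 18.5, 21.9, 20.6 and 15 in CM1, 18.3, 15.9, 19.99, 16.4 and 15.2 in CMA and 13.1, 11.8, 22.2, 19.9 and 14 in CMC, against 10.6 to 21.9 CPM with a median of 17.7 in Ctrl. It did not share the peak of CM1 4, where it was lower than in the other CM1 wounds. Esam averaged 24 ± 3.97 CPM in CM1 and 21 ± 4.84 in Ctrl, and Icam2, a ligand of leukocyte integrins, 6.02 ± 0.708 and 5.47 ± 0.824 CPM.

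Among surface and secreted proteins, Emcn had 17.4, 14.8, 12.8 and 18.7 CPM in CM0, 18.6, 12.4, 16.6 and 20.6 in CM1, 15.2, 9.42, 11.7, 10.8 and 12 in CMA and 17.1, 12.4, 16.5, 14.7 and 14 in CMC, against 8.29 to 20.4 CPM with a median of 13.6 in Ctrl. CMA wounds lay low except CMA 1, and Ctrl held the lowest wound of all. Plvap had 68.6, 52.2, 48.7 and 95.9 CPM in CM0, 76.5, 64.2, 58.7 and 92 in CM1, 69.9, 52.4, 50.3, 44.4 and 52.4 in CMA and 63, 46.4, 65.9, 63.2 and 57.1 in CMC, against 38.8 to 96.1 CPM with a median of 59.1 in Ctrl. Single wounds of CM0, CM1 and Ctrl reached more than 90 CPM beside the rest of their groups. Vwf, the platelet-catching protein stored in endothelial granules, had 81.2, 107, 78.4 and 124 CPM in CM0, 92.1, 114, 84.6 and 102 in CM1, 94.2, 95.2, 73.2, 57.7 and 94 in CMA and 88.2, 74.1, 112, 92.2 and 98.2 in CMC, against 57.7 to 106 CPM with a median of 85.9 in Ctrl. Its values overlapped between all bandages. Clec14a, a lectin-like receptor of sprouting endothelium, had 28.6, 20.8, 20.3 and 23.9 CPM in CM0, 25.7, 17.4, 22.8 and 44.7 in CM1, 15.9, 17.4, 27.2, 18.6 and 15.3 in CMA and 22.2, 19.1, 19.1, 24.4 and 18.3 in CMC, against 12.8 to 21.7 CPM with a median of 19.4 in Ctrl. CM1 4 was far above every other wound. Its matrix ligand Mmrn2 averaged 37.2 ± 5.86 CPM in CM1 and 26.1 ± 3.91 in CMA, with no overlap between these bandages.

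Egfl7, a secreted endothelial protein that hosts a microRNA in an intron, had 51.8, 48.2, 35 and 55.4 CPM in CM0, 65.4, 42.2, 54.5 and 69.6 in CM1, 46.1, 39.1, 37.2, 34.2 and 38 in CMA and 45.2, 38.3, 47.7, 59.8 and 41.7 in CMC, against 34.1 to 63.9 CPM with a median of 42.8 in Ctrl. The lowest CM1 wound was within the range of CMA. The counts of the microRNA, Mir126a, were 0 in every library, but it shares 73 exon bases with Egfl7 on the same strand. Reads there could belong to either gene, so the 0 does not show whether the microRNA was present. S1pr1, the sphingosine-1-phosphate receptor that keeps endothelium tight, had 39.7, 30.1, 31.4 and 42.9 CPM in CM0, 33.4, 31.9, 37.9 and 44 in CM1, 31.5, 26, 28.9, 32.7 and 28.4 in CMA and 42.4, 35, 35.5, 32.6 and 35.5 in CMC, against 22.5 to 44.3 CPM with a median of 31.1 in Ctrl, and Ctrl covered the range of the others. Eng averaged 75.9 ± 11.8 CPM in CM1 and 70.9 ± 17.6 in Ctrl, Robo4 21.6 ± 5.91 and 18.6 ± 5.93, and Ecscr, an endothelial surface protein, 14.5 ± 4.6 and 11.6 ± 3.89. Rasip1, a Ras-interacting protein needed for vessel lumens, averaged 10.8 ± 1.23 CPM in CM1 and 8.65 ± 1.52 in Ctrl. Rasip1 shares 20.4% of its exon bases with Izumo1 and further ones with antisense genes, so its counts are uncertain.

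**Figure D3:**
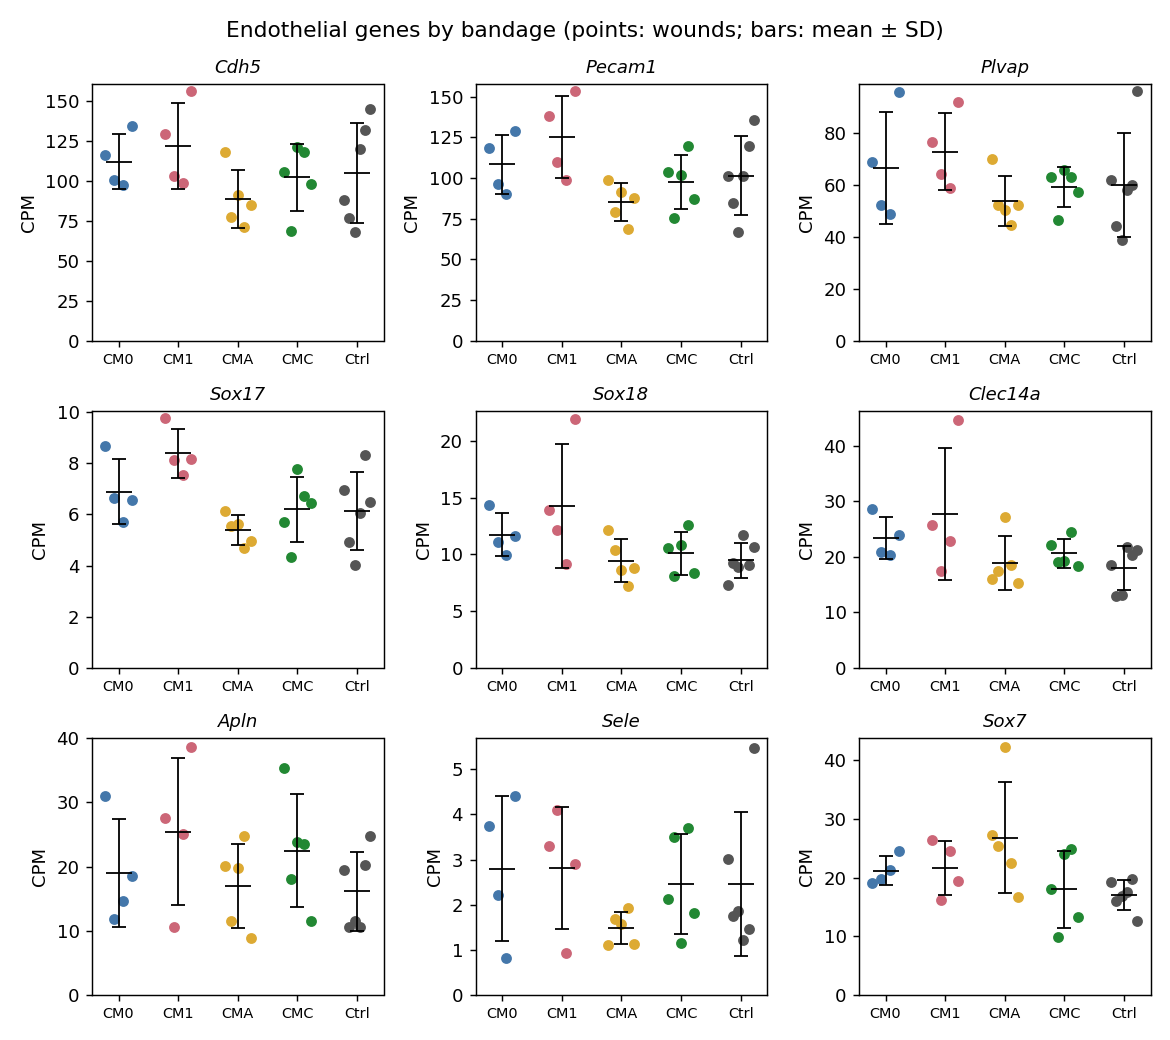
CPM of 9 endothelial genes (vertical axes start at 0) by bandage, with CM0, CM1, CMA and CMC to the left of Ctrl; points are wounds and bars the mean ± SD. CM1 4 is the top point of CM1 for Cdh5, Pecam1, Plvap, Sox18, Clec14a and Apln, CMA 3 stands alone at 42.2 CPM for Sox7, and Ctrl overlaps each medium in each panel.

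The SoxF factors, Sox7, Sox17 and Sox18, which act together in vessel development, did not all vary alike. Over the 24 wounds Sox17 had an r of 0.77 with Cdh5 (rho 0.75) and Sox18 0.72 (rho 0.72), against 0.17 for Sox7 (rho 0.22). Sox17, the arterial member, had 8.67, 6.64, 5.69 and 6.57 CPM in CM0, 9.77, 8.12, 7.55 and 8.16 in CM1, 6.13, 5.55, 5.61, 4.68 and 4.96 in CMA and 5.71, 4.35, 7.77, 6.71 and 6.46 in CMC, against 4.02 to 8.34 CPM with a median of 6.27 in Ctrl. All CM1 wounds were above all CMA wounds. Sox18 had 14.3, 11.1, 9.94 and 11.6 CPM in CM0, 13.9, 12.1, 9.1 and 21.9 in CM1, 12.1, 10.4, 8.65, 7.19 and 8.8 in CMA and 10.5, 8.06, 10.8, 12.6 and 8.36 in CMC, against 7.27 to 11.7 CPM with a median of 9.14 in Ctrl. Its highest value was in CM1 4 and its lowest in CMA 4, and the groups overlapped. Sox7 had 19.2, 19.7, 21.3 and 24.6 CPM in CM0, 26.4, 16.2, 24.5 and 19.4 in CM1, 27.3, 25.4, 42.2, 22.5 and 16.7 in CMA and 18, 9.86, 24, 24.9 and 13.3 in CMC, against 12.6 to 19.8 CPM with a median of 17.2 in Ctrl. CMA 3 was the highest wound by far, and CMA 5 lay within Ctrl. Sox17 shares 16.8% of its exon bases with an antisense transcript, Gm37587, which held 35 counts in all against 1483 of Sox17. Erg averaged 10.2 ± 2.03 CPM in CM1 and 10.00 ± 3.11 in Ctrl, and Tal1 4.53 ± 1.4 and 4.43 ± 1.51 CPM.

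For Notch and arterial genes, Dll4 had 8.67, 7.85, 6.62 and 12.7 CPM in CM0, 10.9, 5.17, 9.83 and 13.3 in CM1, 10.5, 6.64, 6.62, 5.04 and 5.81 in CMA and 10.6, 5.94, 10.1, 14 and 8.01 in CMC, against 5.6 to 12.1 CPM with a median of 8.34 in Ctrl. High and low wounds occurred under each bandage. Hey1, a transcriptional repressor that Notch induces, had 5.57, 4.33, 1.86 and 4.61 CPM in CM0, 5.45, 4.1, 4.24 and 5.48 in CM1, 3.8, 4.1, 2.92, 2.76 and 2.62 in CMA and 2.69, 3.07, 3.48, 4.28 and 4.13 in CMC, against 2.56 to 4.11 CPM with a median of 2.96 in Ctrl. Of the CM1 wounds, CM1 2 lay just below the highest Ctrl wound. Efnb2 had 64.3, 65.5, 65.8 and 61.9 CPM in CM0, 65, 49.1, 57 and 62.7 in CM1, 77.2, 57.8, 84.2, 46.2 and 51.4 in CMA and 54.1, 46.9, 59.1, 54.5 and 49.96 in CMC, against 42.8 to 82.1 CPM with a median of 57.7 in Ctrl. It was highest in CMA 3 and Ctrl 3, and in Ctrl 3 13 other genes of the set were at their lowest. The connexins Gja4 and Gja5 averaged 11.4 ± 2.36 and 7.19 ± 0.979 CPM in CM1 and 9.45 ± 1.82 and 6.52 ± 1.64 CPM in Ctrl, and Notch4 25.2 ± 4.43 CPM in CM1 and 22.2 ± 6.47 in Ctrl.

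Of the venous genes, Nr2f2 had 14.7, 12.8, 9.94 and 19.2 CPM in CM0, 15.2, 12.1, 12.2 and 22.4 in CM1, 16.2, 10.02, 11.5, 11.2 and 14.2 in CMA and 13.7, 10.1, 16.4, 14.7 and 14.8 in CMC, against 9.38 to 18.4 CPM with a median of 15.3 in Ctrl. CM1 4 was again its highest wound and Ctrl 3 its lowest. Ephb4 averaged 80.4 ± 1.21 CPM in CM0, 81.9 ± 5.39 in CM1, 77 ± 8.64 in CMA, 72.7 ± 4.66 in CMC and 75.8 ± 6.67 in Ctrl, the gene with the smallest range of the set.

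The venular genes of leukocyte capture were low and uneven. Sele, induced on inflamed endothelium, had 3.74, 2.21, 0.828 and 4.41 CPM in CM0, 3.29, 4.1, 0.931 and 2.91 in CM1, 1.1, 1.69, 1.57, 1.92 and 1.12 in CMA and 2.13, 3.5, 1.16, 3.7 and 1.81 in CMC, against 1.21 to 5.46 CPM with a median of 1.8 in Ctrl. All CMA wounds stayed under 2 CPM, as did 4 of the 6 Ctrl wounds. Selp, which is stored with Vwf and also carried by platelets, had 7.12, 6.44, 4.45 and 12.6 CPM in CM0, 9.66, 7.3, 3.83 and 9.72 in CM1, 4.17, 5.43, 4.49, 7.31 and 7.02 in CMA and 5.93, 4.67, 7.43, 6.25 and 4.65 in CMC, against 3.71 to 14.3 CPM with a median of 5.16 in Ctrl. CM0 4 and Ctrl 6 stood above the rest. Ackr1 had 4.84, 4.83, 6.21 and 8.43 CPM in CM0, 7.16, 4.76, 3.52 and 8.27 in CM1, 4.29, 5.92, 4.83, 9.35 and 4.21 in CMA and 7.16, 6.89, 4.64, 6.83 and 4.82 in CMC, against 2.9 to 7.73 CPM with a median of 4.95 in Ctrl, with full overlap.

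Of the genes of sprouting, Esm1 and Apln varied widely and Aplnr less. Apln, the apelin peptide of tip cells, had 30.9, 11.8, 14.7 and 18.5 CPM in CM0, 27.5, 10.6, 25.1 and 38.6 in CM1, 20.1, 11.5, 19.8, 24.7 and 8.9 in CMA and 35.4, 18, 23.9, 23.5 and 11.5 in CMC, against 10.5 to 24.8 CPM with a median of 15.5 in Ctrl. Each bandage held both low and high wounds. Aplnr had 32.4, 30.4, 27.4 and 49.9 CPM in CM0, 49.3, 37.1, 37.4 and 56 in CM1, 42.9, 26.6, 28.7, 23.3 and 27.3 in CMA and 38.8, 22.8, 34.5, 47.3 and 28.7 in CMC, against 22.6 to 54.3 CPM with a median of 33.7 in Ctrl. The receptor followed Cdh5, with CM1 4 highest and Ctrl 3 lowest, whereas the ligand had an r of 0.49 with Cdh5. Esm1 had 4.2, 2.21, 2.17 and 4.12 CPM in CM0, 7.95, 2.87, 3.72 and 5.7 in CM1, 4.17, 2.66, 3.48, 3.6 and 0.468 in CMA and 4.7, 4.14, 2.67, 2.66 and 3.79 in CMC, against 0.7 to 4.88 CPM with a median of 2.7 in Ctrl. The lowest wounds, CMA 5 and Ctrl 2, held few counts of it.

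Few of all tested genes separated a medium from the control wounds, and no endothelial gene did. Under each medium 0 of the 35 were higher in every wound than in every Ctrl wound, beside 0.285% of all tested genes under CM0, 0.453% under CM1, 0.148% under CMA and 0.232% under CMC. Likewise 0 were lower in every wound, beside 0.516%, 0.648%, 0.179% and 0.311%. With shares this small, 0 of 35 does not set these genes apart.

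Under CM1 the endothelial genes stood slightly higher than under Ctrl, but no single gene passed the test. The edgeR quasi-likelihood test called 0 of the 35 at an adjusted p under 0.05, as it called 0 of 18978 genes (0.0%). An unadjusted p under 0.05 was found for 4 of the 35, beside 7.04% of all tested genes. They were Sox18 (log2 fold change 0.59, 95% interval 0.19 to 0.99, adjusted p = 0.695), Clec14a (log2 fold change 0.62, 95% interval 0.18 to 1.06, adjusted p = 0.695), Hey1 (log2 fold change 0.60, 95% interval 0.14 to 1.06, adjusted p = 0.695) and Sox17 (log2 fold change 0.45, 95% interval 0.10 to 0.81, adjusted p = 0.695). The log2 fold change was above 0 for 34 of the 35, beside 48.7% of all tested genes, with Efnb2 as the exception, and its median was 0.22, beside -0.01 over all genes. The 3 genes of sprouting had the highest median of the roles, 0.64, and the 2 venous genes the lowest, 0.11. These roles hold few genes, and no gene of sprouting was among the 4 named above. For 30 of the 35 genes the 95% interval lay within 2-fold either way, beside 82.7% of all tested genes.

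These counts leaned on the highest and the lowest wound. Without CM1 4 and Ctrl 3 together, a setting chosen after seeing the data, 21 of the 35 were above 0 and 0 had an unadjusted p under 0.05, while with either left out alone 29 and 32 were above 0. Without CM1 4 the count with an unadjusted p under 0.05 was 2, and without Ctrl 6 it was 11. With single wounds left out, the log2 fold change of Sox18 lay between 0.31 and 0.75 and that of Clec14a between 0.29 and 0.78, both lowest without CM1 4. The genes vary together, so 34 of 35 is not 34 separate observations.

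Under CMA the direction was the other way round for most genes, and again no single gene passed the test. The edgeR test called 0 of the 35, beside 0.0% of all tested genes. The log2 fold change against Ctrl was below 0 for 27 of the 35, beside 53.3% of all tested genes, with a median of -0.19 beside -0.01. Only Sox7 had an unadjusted p under 0.05, beside 6.61% of all tested genes, and it was higher under CMA (log2 fold change 0.66, 95% interval 0.20 to 1.11, adjusted p = 0.725; leave-one-out range 0.43 to 0.79). Sele (log2 fold change -0.77, 95% interval -1.71 to 0.16, adjusted p = 0.759) and Egfl7 (log2 fold change -0.25, 95% interval -0.58 to 0.07, adjusted p = 0.778) followed by p. The intervals of 33 of the 35 lay within 2-fold either way, beside 84.3%. The 8 genes above 0, beside 46.7% of all tested genes, became 4 without Ctrl 3, 4 without CMA 1 and 5 without CMA 3.

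Under CM0 the 35 genes stayed near their Ctrl levels. The edgeR test called 0, beside 0.0% of all tested genes, and 0 had an unadjusted p under 0.05, beside 4.92%. The smallest p-values belonged to Clec14a (log2 fold change 0.38, 95% interval -0.06 to 0.83, adjusted p = 0.946), Hey1 (log2 fold change 0.38, 95% interval -0.09 to 0.84, adjusted p = 0.946) and Sox18 (log2 fold change 0.31, 95% interval -0.09 to 0.71, adjusted p = 0.946). The log2 fold change was above 0 for 26 of the 35, beside 47.4% of all tested genes, with a median of 0.10, but for 14 without CM0 4. The intervals of 32 lay within 2-fold either way, beside 83.9%.

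Under CMC the median log2 fold change over Ctrl, 0.04, was the closest to 0 of the 4 media. The edgeR test called 0 of the 35, beside 0.0% of all tested genes, and 0 had an unadjusted p under 0.05, beside 8.55%. The smallest p-values belonged to Apln (log2 fold change 0.46, 95% interval -0.27 to 1.19, adjusted p = 0.731), Efnb2 (log2 fold change -0.17, 95% interval -0.47 to 0.12, adjusted p = 0.757) and S1pr1 (log2 fold change 0.17, 95% interval -0.13 to 0.46, adjusted p = 0.765). The log2 fold change was above 0 for 22 of the 35, beside 48.4% of all tested genes, and for 12 without Ctrl 3. The intervals of 33 lay within 2-fold either way, beside 84.6%.

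With the media given equal weight, the mean of the 4 media against Ctrl gave 0 calls among the 35 by edgeR, beside 0.0% of all tested genes, and 0 with an unadjusted p under 0.05, beside 9.42%. The median log2 fold change was 0.03, and 34 of the 35 intervals lay within 2-fold either way, beside 92.3%. Sox7 (log2 fold change 0.35, 95% interval -0.02 to 0.72, adjusted p = 0.547), Clec14a (log2 fold change 0.32, 95% interval -0.02 to 0.65, adjusted p = 0.548) and Hey1 (log2 fold change 0.29, 95% interval -0.06 to 0.64, adjusted p = 0.592) had the smallest p-values. In all, 25 of the 35 were above 0, beside 47.1% of all tested genes, and 15 without Ctrl 2 or 13 without Ctrl 3. These comparisons and those of the single media share the 6 Ctrl wounds, which include the lowest wound of the set.

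**Figure D4:**
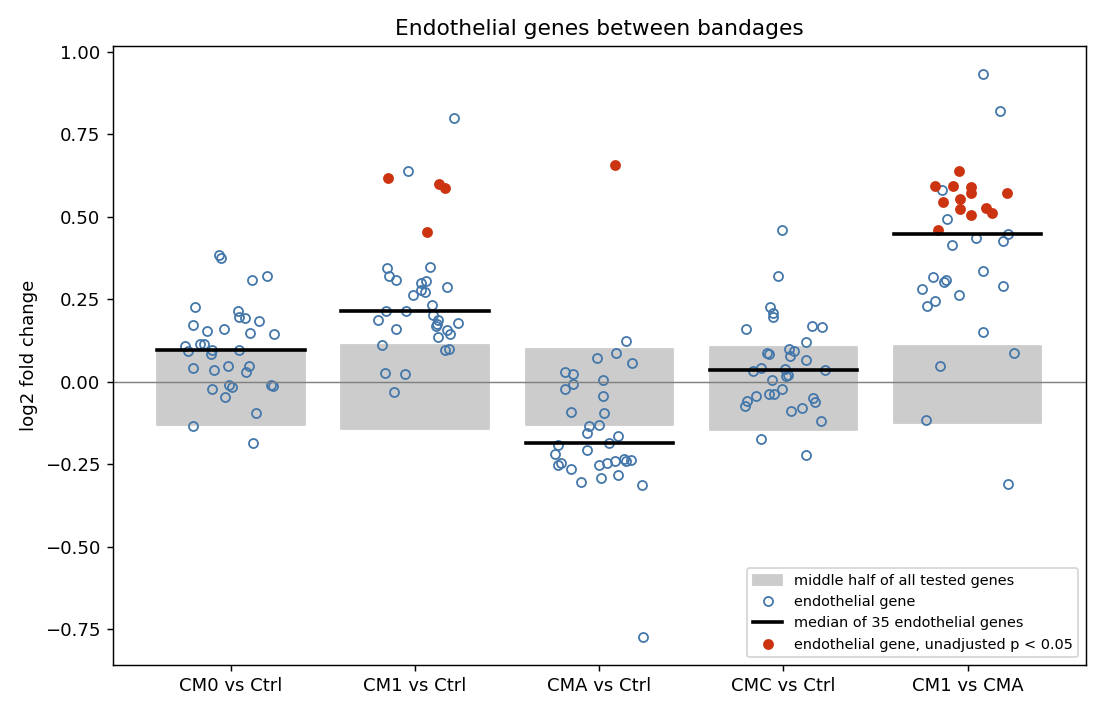
Log2 fold change of the 35 endothelial genes in 5 comparisons, with the medium named first over the group named second; grey bands are the middle 50% of all tested genes, thick lines the median of the 35, and filled points genes with an unadjusted p under 0.05. The median is 0.22 for CM1 and -0.19 for CMA over Ctrl, and 0.45 for CM1 over CMA, where 13 points are filled; no gene passed an adjusted p of 0.05.

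The widest gap between bandages was that of CM1 and CMA, which does not involve the control wounds. Pecam1, Sox17, Mmrn2 and Rasip1 were higher in every CM1 wound than in every CMA wound, 4 of the 35 genes beside 0.569% of all tested genes. The comparison is singled out for its wide gap. The genes vary together, with a median r of 0.52 over 595 pairs. Counts of genes, here and between other bandages, are thus not separate observations. The log2 fold change was above 0 for 33 of the 35, beside 49.8%, with a median of 0.45 beside 0.00 over all genes, and the exceptions were Sox7 (-0.31) and Efnb2 (-0.12). Sox17 averaged 8.4 ± 0.955 CPM in CM1 and 5.39 ± 0.573 in CMA (log2 fold change 0.64, 95% interval 0.26 to 1.02, adjusted p = 0.995), Egfl7 58 ± 12.3 and 38.9 ± 4.41 CPM (log2 fold change 0.57, 95% interval 0.22 to 0.93, adjusted p = 0.995), and Pecam1 125 ± 25.2 and 85.3 ± 11.6 CPM (log2 fold change 0.55, 95% interval 0.19 to 0.92, adjusted p = 0.995).

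The edgeR test called 0 of the 35, and 0 of all tested genes (0.0%), in this comparison, and 13 of the 35 had an unadjusted p under 0.05, beside 4.0% of all tested genes. All 13 were higher in CM1, among them Cdh5 (unadjusted p = 0.0407 and adjusted p = 0.995 in edgeR), Emcn (0.021 unadjusted) and Robo4 (0.0337 unadjusted). The count was 5 without CM1 4, 8 without CM1 1 and between 9 and 19 with each other wound left out, and the number of genes above 0 stayed at 32 or 33 under each of these. Only 24 of the 35 intervals lay within 2-fold either way, beside 81.8% of all tested genes. Neutrophil genes were also higher in CM1, 6 of 6 of them, with sums of 161 to 605 CPM in CM1 and 51.5 to 471 CPM in CMA. So were 8 of 9 macrophage genes (median log2 fold change 0.23), 5 of 6 fibroblast genes (0.20) and 8 of 10 pericyte and smooth muscle genes (0.06), while 6 of 7 keratinocyte (-0.28), 6 of 6 cell cycle (-0.28) and 5 of 5 hair follicle genes (-3.02) were lower; their part in the endothelial values was not tested.

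By mean level CM1 was the highest of the 5 groups for 30 of the 35 genes, beside 19.1% of all tested genes, and CMA the lowest for 25, beside 19.6%. Without CM1 4, CM1 was the highest for 14 of the 35, beside 20% of all tested genes, and with each other wound left out for 24 to 33. CMA was the lowest for 21 to 28 with any single wound left out. As the genes vary together, these counts are not separate observations either. The test for any difference among the groups called 0 of the 35 by edgeR, beside 0.0% of all tested genes, and 3 had an unadjusted p under 0.05, beside 4.65%, namely Sox17 (unadjusted p = 0.0226, adjusted p = 0.929 in edgeR), Sox18 (unadjusted 0.0302) and Egfl7 (unadjusted 0.0495).

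The remaining comparisons between media also gave 0 calls by edgeR among the 35, beside 0.0% of all tested genes in each. CM1 over CMC was above 0 for 33 of the 35, beside 50.8% of all tested genes, with a median log2 fold change of 0.22 and 3 genes at an unadjusted p under 0.05, beside 2.71%, namely Sox18 (0.50), Sox17 (0.44) and Ephb4 (0.17). CMC over CMA was above 0 for 31, beside 50.9%, with a median of 0.19 and 2 such genes, beside 6.16%, Rasip1 (0.45) and Sox7 (-0.58). CM1 over CM0 was above 0 for 31, beside 50.9%, with a median of 0.16 and 0 such genes, beside 2.22%, but for 18 without CM1 4. CMA over CM0 was above 0 for 3, beside 50.9%, with a median of -0.27 and 0 such genes, beside 3.14%, and for 8 without CM0 4, 6 without CMA 5 and 5 without CMA 4. CMC over CM0 was above 0 for 13, beside 49.2%, with a median of -0.03 and 0 such genes, beside 3.72%, and for 24 without CM0 4, 8 without CMC 4 and 7 without CM0 2. Efnb2 was lower in every CMC wound than in every CM0 wound, 1 of the 35 beside 0.98% of all tested genes.

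Other endothelial genes, from the list of 22 that includes Tek, Kdr, Flt1, Cd34 and Nos3, were set beside the 35. The edgeR test called 0 of them in each comparison. Under CM0 17 of the 22 had a log2 fold change above 0 against Ctrl, under CM1 20, under CMA 8 and under CMC 17, with medians of 0.11, 0.26, -0.05 and 0.14, and CM1 over CMA was above 0 for 20 with a median of 0.31. Tek, the angiopoietin receptor, had the smallest p for any difference (unadjusted p = 0.00921, adjusted p = 0.929 in edgeR), at a mean of 46.9 CPM in CM0, 40.2 in CM1, 32.3 in CMA, 38.7 in CMC and 31.4 in Ctrl. Of 10 other Notch genes, 3 were above 0 under CM1 and 4 under CMA against Ctrl, with medians of -0.10 for both. Of 6 lymphatic endothelial genes 2 were above 0 under CM1 and 4 under CMA, and of 10 pericyte and smooth muscle genes 6 and 3. None of these was called.

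Markers of other cells were uneven between the bandages as well, and edgeR called 0 of them in every comparison. Under CM1, where 34 of the 35 endothelial genes were above 0 against Ctrl, so were 6 of 6 fibroblast genes (median log2 fold change 0.28), 5 of 6 neutrophil genes (1.2), 7 of 9 macrophage genes (0.07), 5 of 7 keratinocyte genes (0.39) and 6 of 6 adipocyte genes (0.21). Below 0 were 6 of 6 cell cycle genes (-0.33), 7 of 7 skeletal muscle genes (-0.87) and 5 of 5 hair follicle genes, whose Ctrl level rests on Ctrl 3. The macrophage sum was 2705 to 3794 CPM in CM1 and 2236 to 3987 in Ctrl, and the neutrophil sum 161 to 605 CPM in CM1 and 35.4 to 311 in Ctrl. The skeletal muscle sum was 7156 to 13997 CPM in CM1 and 9592 to 27797 in Ctrl. Under CMA, where most endothelial genes were below 0, 7 of 7 keratinocyte genes, 6 of 6 fibroblast genes (0.11) and 6 of 6 adipocyte genes (0.25) were above 0 and 8 of 9 macrophage genes below it, and under CMC 9 of 9 macrophage genes and 4 of 5 erythroid genes were above 0. Skeletal muscle genes were below 0, 7 of 7, and fibroblast genes above 0, 6 of 6, under each of the 4 media. These comparisons share the 6 Ctrl wounds, so they do not repeat each other independently. The muscle sum was 26732 CPM in Ctrl 2 and 27797 in Ctrl 4, against 9592 to 13248.5 in the other Ctrl wounds. Of the 4 platelet genes tested 1 was above 0 under CM1 and 1 under CMA. The smallest p for any group difference within each list belonged to Heyl, Reln, Abcc9, Itga2b, Hbb-bs, C1qa, Retnlg, Dcn, Krt10, Krt83, Lep, Myh4 and Nusap1, with adjusted p-values of 0.929 to 0.937 in edgeR. The part of these cells in the endothelial values was not tested.

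Markers of other tissue compartments varied with single endothelial genes across the 24 wounds. Among 490 correlations of the 35 genes with the summed CPM of 14 gene lists, 50 had an adjusted permutation p under 0.05 for r, of which 14 were with the other endothelial list. Sox7 was the only gene of the set to vary with the sum of 7 keratinocyte genes at that threshold (r 0.81, permutation p 1e-05, adjusted p 0.00245; rho 0.78, permutation p 3e-05, adjusted p 0.0049). Its r was 0.75 with the group means subtracted and 0.77 without the 2 wounds farthest from the median. The keratinocyte sum was 8572 to 17036 CPM in CM0, 8094 to 14408 in CM1, 8024 to 19620.4 in CMA, 5056 to 12924 in CMC and 5614 to 13462 in Ctrl, and CMA 3, the highest wound for Sox7, had the highest sum. Against Ctrl all 7 keratinocyte genes were higher under CMA, by a median log2 fold change of 0.74, beside the higher Sox7. Under CM0 all 7 were higher as well, by a median of 0.73, where Sox7 had a log2 fold change of 0.32 (unadjusted p = 0.187, adjusted p = 0.947 in edgeR). The part of epidermal cells in the Sox7 value was not tested.

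**Figure D5:**
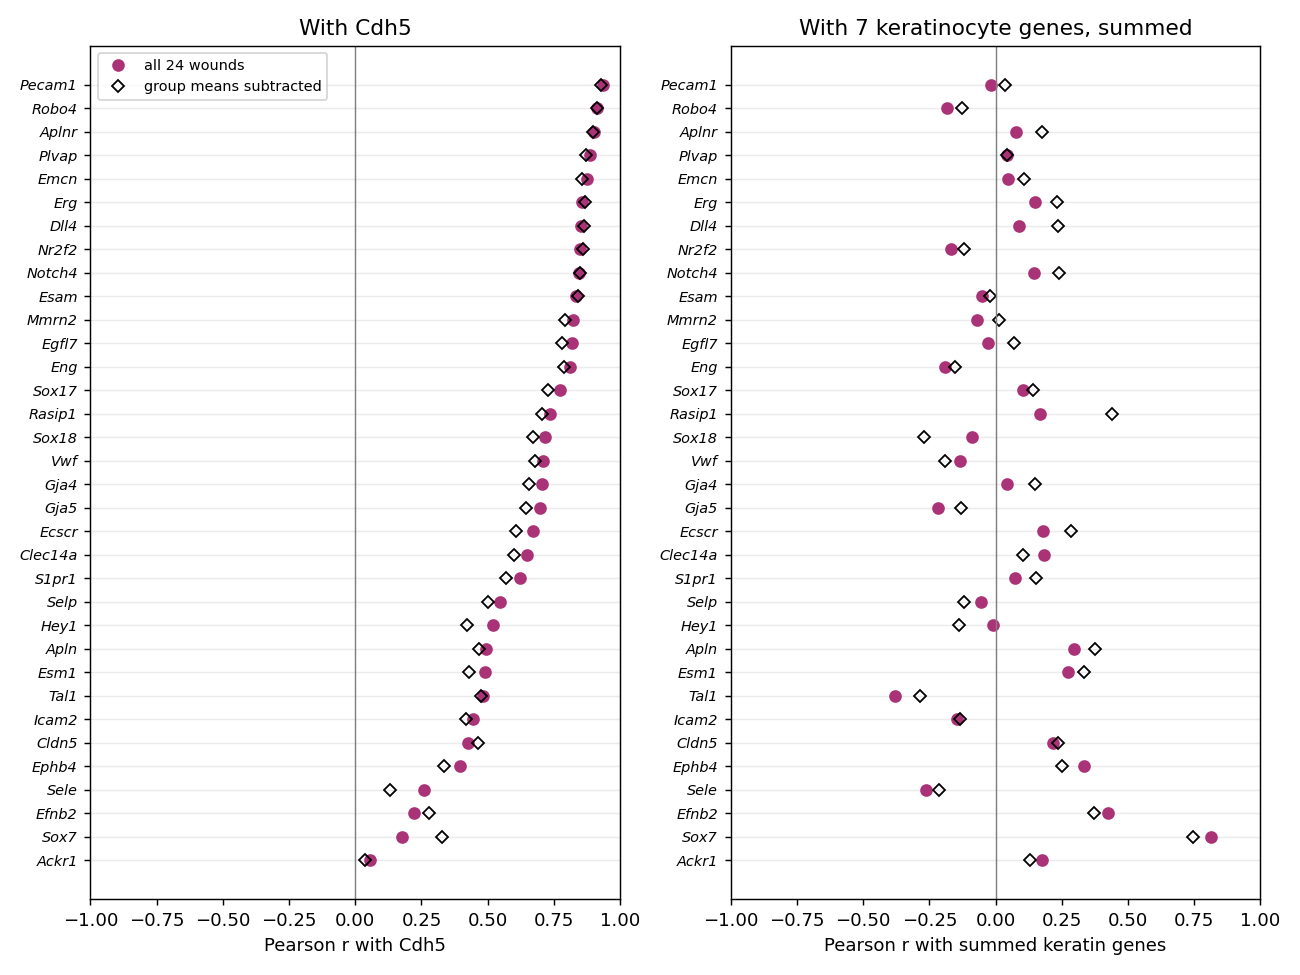
Pearson r over 24 wounds of 34 endothelial genes with Cdh5 (left) and with the summed CPM of 7 keratinocyte genes (right), on the log2 scale, by falling r with Cdh5; filled points use all wounds as they are, open diamonds the values with group means subtracted. Most genes lie above 0.5 on the left and near 0 on the right, and Sox7 has 0.17 on the left and 0.81 on the right.

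Apln varied with the sum of 6 neutrophil genes (r 0.67, rho 0.64, adjusted permutation p of r 0.018; 0.62 without the 2 farthest wounds), and Esm1 likewise (r 0.63, rho 0.57, adjusted permutation p of r 0.031, and of rho 0.072; 0.67 without the 2 farthest). Apln also varied with the sum of 7 platelet genes (r 0.70, rho 0.68, adjusted permutation p of r 0.0108; 0.75 without the 2 farthest), a sum in which Pf4 averaged 61.9 CPM, Itga2b 9.05, Ppbp 3.61, Treml1 1.36, Gp9 0.224, Gp1bb 0.0965 and Gp6 0.0222 CPM; the part of platelets in the Apln level was not tested. Efnb2 went against the sum of 6 adipocyte genes (r -0.66, rho -0.65, adjusted permutation p of r 0.0192; -0.70 without the 2 farthest) and with 6 cell cycle genes (r 0.64, rho 0.61, adjusted permutation p of r 0.0213; 0.59 without the 2 farthest). S1pr1 had the highest r with the other endothelial sum (r 0.86, rho 0.87, adjusted permutation p of r 0.00245; 0.80 without the 2 farthest). Ackr1 varied with that sum (r 0.63, rho 0.66, adjusted permutation p of r 0.0245; 0.52 without the 2 farthest) and with the sum of 6 lymphatic endothelial genes (r 0.63, rho 0.61, adjusted permutation p of r 0.026; 0.49 without the 2 farthest), though hardly with Cdh5. In the lymphatic sum Pdpn averaged 66 CPM, Reln 17.8, Flt4 14.8, Mmrn1 9.31, Lyve1 9.24 and Prox1 4.09. The other endothelial sum was led by Cav1 at 311 CPM, Cd93 at 254 and Cd34 at 230, with Nos3 at 9.84 and Myct1 at 4.2. Both sums thus rest mostly on a few genes, and the part of other cells in them was not tested. None of the 14 list sums varied with Cdh5 at an adjusted permutation p under 0.05, the smallest being 0.0624 when adjusted over these 14 tests alone. The adjusted p-values above are over the 490 correlations. The largest r values were 0.55 (rho 0.48) with the fibroblast sum, -0.50 (rho -0.45) with the adipocyte sum, -0.48 (rho -0.48) with the other Notch sum and 0.47 (rho 0.44) with the other endothelial sum. Without the 2 wounds farthest from the median they were 0.33, -0.54, -0.43 and 0.23.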

How the data were processed

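RNA from 24 wounds was analysed, each a library of its own, in the groups that the labels give. The values are counts of reads per gene as the authors deposited them, not normalised; the submitters' processing notes name bcl2fastq 2.17, FastQC, cutadapt, STAR, featureCounts, DESeq2 and the build GRCm38, and no source used here gives the annotation release or the versions of STAR and featureCounts. Per the labels' protocols, ribosomal RNA was removed with Ribo-Zero and libraries were made with NEBNext Ultra, a kit that does not mark strand, so overlapping genes on either strand can share reads. No batch or date is given, and library numbers follow deposit order and pair nothing. The labels do not say that each library is a separate animal, so p-values measure the spread between these samples.

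Symbols came from GENCODE M21 (GRCm38), which named 54165 of 54232 identifiers. Genes were filtered with filterByExpr, scaled by TMM and fitted with edgeR 4.0.16 (robust quasi-likelihood, 1 term per group, all 24 libraries) in R 4.3.3; p-values were adjusted with Benjamini-Hochberg over 18978 genes and compared with 0.05. Correlations used log2 CPM (prior count 2) and two-sided permutation tests with 100000 resamples, adjusted over the correlations of the family stated. Alternatives were DESeq2 1.42.0, limma 3.58.1 with quality weights, DESeq2 size factors, no filter, fits of the 2 groups compared, and leaving out libraries. The fit was tested on simulated counts in which 200 of 18978 genes were changed in CM1. Against Ctrl it recovered 24 of 66 genes changed 1.5-fold (36.4%), 66.7% of those changed 2-fold and 92.6% of those changed 4-fold. Calls of 0 can therefore miss most changes of 1.5-fold or less, and also some of 2-fold and of 4-fold.

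The members, the lists and the tests were chosen with earlier results of these data known. All 35 members were described by role. Values are given for 15 panel genes and, per comparison with Ctrl, for the 3 lowest p-values. They are given per library for the media, and as lowest, highest and median for Ctrl. Of the 14 lists, 116 of 117 entries were matched. Promoters are from RefSeq, GRCm38.p6.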

Additional observations from a re-analysis of the deposited data

Results flagged for a closer look

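In 175 sets of values, 35 genes in 5 groups, 3 held a wound far from the others of its group by Dixon's test, where chance flags about 1 in 20. Esam stood at 16.2 CPM in CMC 2, against 23.2 to 24.7 CPM in the other CMC wounds. Icam2 stood at 4.18 CPM in CMC 3, against 5.26 to 5.55 CPM. Esm1 stood at 0.468 CPM in CMA 5, against 2.66 to 4.17 CPM, and rested on 5 counts there.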

How the results depend on the processing

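The count of endothelial genes called stayed at 0 in each of the 12 tests under every alternative run, and limma called 0 of all tested genes in each; DESeq2 called 1 gene for any difference, 1 under CM0, 1 under CM1, 0 under CMA, 4 under CMC and 1 for the mean of the media, none of them of this set. Of 23 counts of genes above 0 that changed by over 1.5 times, those for single wounds stand beside their comparisons. The log2 fold change of S1pr1 for CMC over Ctrl reversed, to -0.0103 without Ctrl 3, Ctrl 4 and CM1 3. With those wounds left out, 15 genes were above 0 under CM0, 5 under CMA, 10 under CMC and 10 for the mean of the media; without CM1 4 and Ctrl 3 the counts were 4 under CMA, 12 under CMC, 12 for the mean and 17 for CM1 over CM0, and the cause was not tested. With single wounds left out, the median log2 fold change over Ctrl ranged between -0.04 and 0.19 for CM0, 0.12 and 0.32 for CM1, -0.28 and -0.07 for CMA, -0.06 and 0.15 for CMC, and -0.05 and 0.13 for the mean, and that of CM1 over CMA between 0.30 and 0.58. The medians for CM0, CMC and the mean thus crossed 0, within the SD of 0.244 between wounds of a group, and no gene named for its p in a comparison passed the threshold under any alternative. Low counts limit Sele, Esm1, Hey1 and Tal1, whose lowest libraries held 8, 5, 18 and 17 counts. No paired analysis was possible because the labels give the samples running numbers only, which no pair of groups shares.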
